A study of Mus musculus with 15 samples.

Results

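The replication-dependent core histone genes supply the H2A, H2B, H3 and H4 proteins of the nucleosome. They were taken here as the 62 rows, among 23996 genes of a mouse macrophage RNA-seq table, whose symbol starts with Hist1h to Hist4h followed by 2a, 2b, 3 or 4. By symbol, 18 were H2A genes, 19 H2B genes, 12 H3 genes and 13 H4 genes. Of these, 1, Hist3h2bb-ps of the H2B genes, is annotated as a processed pseudogene. The family was selected on values of these data, because some H2A genes had stood among the largest differences between resting Nelfb KO and resting WT cells in an earlier look, so its Nelfb KO over WT values are a description and carry no test. The table covered bone marrow-derived macrophages (BMDMs), grown from marrow of C57BL/6 mice for 5 days in L929 cell supernatant as a source of macrophage colony stimulating factor. Nelfb KO mice carried floxed Nelfb alleles (Nelfb fl/fl) and Lyz2-Cre, a Cre recombinase expressed from a gene of the myeloid lineage, and WT mice (Nelfb+/+) carried Lyz2-Cre too. Nelfb encodes a subunit of the negative elongation factor complex (NELF), which holds RNA polymerase II close to the promoter. The 15 libraries formed 5 groups of 3, namely resting Nelfb KO, resting WT, Nelfb KO and WT after 0.5 h of lipopolysaccharide (LPS) at 10 ng/ml, and WT after 1 h of LPS.

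Replication-dependent histone mRNAs are made mostly in S phase, when new DNA has to be packed, and they end in a conserved stem-loop in place of a poly(A) tail. The stem-loop binding protein Slbp holds this element, and the 3′ end is cut downstream of it with the U7 small nuclear ribonucleoprotein. In human cells, NELF has been found with the cap-binding complex at histone mRNAs, where its loss left some of them polyadenylated. The libraries were made from poly(A)-selected RNA, so tailless histone mRNA was depleted, and the values below describe what remained after that selection.

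In the GENCODE annotation of GRCm38, 48 of the 62 genes lay on chromosome 13, 10 on chromosome 3, 3 on chromosome 11 and 1 on chromosome 6, and 57 had a single exon in every transcript. A match to the histone stem-loop consensus (a stem of 6 base pairs around a loop of 4 bases) was found in an annotated transcript of 42 of the 62 genes, against 0.242% of 21877 protein-coding genes. Gene models that stop at the coding region cannot show it. The following windows, written as DNA with the stem-loop in capitals and 5 bases on each side, are shown because they are the element that sets these mRNAs apart, in genes whose values are described below.
Hist2h2aa1: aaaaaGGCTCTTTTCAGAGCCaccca
Hist2h2ac: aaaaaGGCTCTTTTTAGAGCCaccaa
Hist3h2a: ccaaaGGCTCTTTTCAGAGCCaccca
Hist1h2bm: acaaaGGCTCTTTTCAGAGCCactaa
Hist1h4j: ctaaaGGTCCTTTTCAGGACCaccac
Hist1h4i: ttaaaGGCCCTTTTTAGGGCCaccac
The form in Hist2h2aa1, Hist3h2a and Hist1h2bm occurred in 23 of the 42 genes. No stem-loop was found in the annotated transcripts of Hist1h2bc, which has 2 exons and 1156 nt, or of Hist2h2be, which has 2620 nt.

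Promoter windows running 250 bases before to 50 bases after the annotated start were matched for 56 of the 62 genes through RefSeq synonyms, giving 57 windows. On either strand, TATAAA was present in 54.4% of these windows, against 13.6% of all 32817 RefSeq promoters. CCAAT was present in 84.2% against 37.4%, and the octamer ATTTGCAT in 24.6% against 1.74%. The octamer was found in 38.9% of H2A and 41.2% of H2B windows and in 0.0% of H3 and H4 windows, and CCAAT in every H2A, H2B and H3 window and in 3 of 12 H4 windows. The RefSeq windows of Hist2h2aa1, Hist2h2ac and Hist1h2ai are shown because these 3 H2A genes are described in most detail below. Capitals mark these 3 motifs on either strand, which do not overlap one another here.
Hist2h2aa1 (GRCm38, chr3:96245247-96245546, + strand): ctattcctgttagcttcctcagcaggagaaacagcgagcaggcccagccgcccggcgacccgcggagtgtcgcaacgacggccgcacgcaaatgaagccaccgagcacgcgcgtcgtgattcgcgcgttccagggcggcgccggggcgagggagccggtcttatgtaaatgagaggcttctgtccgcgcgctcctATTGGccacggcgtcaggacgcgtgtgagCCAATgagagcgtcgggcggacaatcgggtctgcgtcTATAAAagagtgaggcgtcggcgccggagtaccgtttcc
Hist2h2ac (GRCm38, chr3:96220831-96221130, - strand): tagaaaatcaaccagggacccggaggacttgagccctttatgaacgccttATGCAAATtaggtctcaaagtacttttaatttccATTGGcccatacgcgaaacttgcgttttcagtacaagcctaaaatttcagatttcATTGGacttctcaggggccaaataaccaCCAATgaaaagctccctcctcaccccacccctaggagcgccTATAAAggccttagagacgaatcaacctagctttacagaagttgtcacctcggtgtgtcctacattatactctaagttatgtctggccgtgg
Hist1h2ai (GRCm38, chr13:21716162-21716461, + strand): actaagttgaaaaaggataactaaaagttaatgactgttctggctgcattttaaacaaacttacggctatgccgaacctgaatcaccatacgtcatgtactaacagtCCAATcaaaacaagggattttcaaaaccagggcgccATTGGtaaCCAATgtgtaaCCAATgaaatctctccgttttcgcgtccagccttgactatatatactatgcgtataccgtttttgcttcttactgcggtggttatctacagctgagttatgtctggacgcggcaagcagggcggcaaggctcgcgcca
The Hist2h2ac window covers the whole gap of 238 bases to the start of Hist2h2be, which reads the other way. It held 1 octamer, 3 CCAAT boxes and 1 TATA box, whereas the Hist2h2aa1 window held 2 CCAAT boxes and 1 TATA box and no octamer with these letters.

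The table gave 1 average FPKM (a fragment count scaled by transcript length and by library size) per gene and group. No value per library was used, so no standard deviation, n of single libraries or test across libraries could be given, and the depth behind each value is unknown. The targeted gene Nelfb was at 5.65 FPKM in resting Nelfb KO and 21.9 FPKM in resting WT cells, and at 5.55 FPKM in Nelfb KO and 19.7 FPKM in WT cells after 0.5 h. All 7 macrophage markers of the table (Csf1r, Cd68, Itgam, Mertk, Fcgr1, Lyz2 and Spi1) were at 19.7 FPKM or more in every group. Of 13 markers of other cell types, 11 were under a mean of 0.5 FPKM and the fibroblast collagens Col1a1 and Col1a2 were between 3.99 and 6.76 FPKM. At rest, 2 of these 7 were past a ratio of 1.4 as higher, Lyz2 with 41.6 FPKM in resting Nelfb KO and 19.7 FPKM in resting WT cells, and Mertk with 47.1 FPKM in resting Nelfb KO and 27.97 FPKM in resting WT cells. Resting WT stood apart in how ratios moved with transcript length. Among the 255 other genes with transcripts of up to 600 nt, the median log2 ratio was −0.28, −0.34 and −0.30 in the 3 comparisons with resting WT (resting Nelfb KO, WT at 0.5 h and WT at 1 h). It was 0.09 in Nelfb KO against WT cells at 0.5 h and 0.025 in Nelfb KO cells at 0.5 h against rest, the comparisons that do not use resting WT. The median core histone transcript had 528 nt, against 2989 nt over all genes kept, and main values are also given with this trend removed. Lengths are those of the longest GENCODE transcript and can differ from the gene models behind the FPKM. Hist3h2a had 2146 nt, against a deposited locus of 508 bases, and Hist1h4j 774 nt, against 312 bases.

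The summed level of the 62 core histone genes was higher in Nelfb KO than in WT macrophages at both times. At rest, it was 597.0 FPKM in Nelfb KO cells and 405.8 FPKM in WT cells, a ratio of 1.47. After 0.5 h of LPS, it was 580.5 FPKM in Nelfb KO cells and 339.9 FPKM in WT cells, a ratio of 1.71, and WT cells at 1 h had 324.5 FPKM. The family accounted for 0.113% of all FPKM in resting Nelfb KO and 0.066% in resting WT cells, and for 0.109% in Nelfb KO and 0.0664% in WT cells at 0.5 h. In these bulk samples, fewer cells of a kind and less RNA per cell cannot be told apart. With the length trend removed, the log2 ratio of the sums was 0.88 at rest and 0.68 at 0.5 h, against 0.56 and 0.77 as deposited.

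All 4 histone types were on the same side, with H2A and H3 showing larger ratios than H2B and H4. The H2A ratio rests in large part on a pair of copies, as given below. H2A genes together had 112.1 FPKM in resting Nelfb KO and 57.2 FPKM in resting WT cells (log2 ratio 0.96). H2B genes had 408.4 FPKM in resting Nelfb KO and 291.2 FPKM in resting WT cells (log2 ratio 0.49), and made up between 68.3% and 76.0% of the family sum in the 5 groups. H3 genes were the least abundant, with 8.70 FPKM in resting Nelfb KO and 5.24 FPKM in resting WT cells (log2 ratio 0.64), and H4 genes had 67.8 and 52.1 FPKM in resting Nelfb KO and resting WT cells (log2 ratio 0.37). With the length trend removed, the resting log2 ratios were 1.24 for H2A, 0.82 for H2B, 1.19 for H3 and 0.72 for H4. The order differed at 0.5 h, where the log2 ratio of Nelfb KO to WT was 1.54 for H3, 1.25 for H2A, 0.78 for H4 and 0.64 for H2B.

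**Figure D1:**
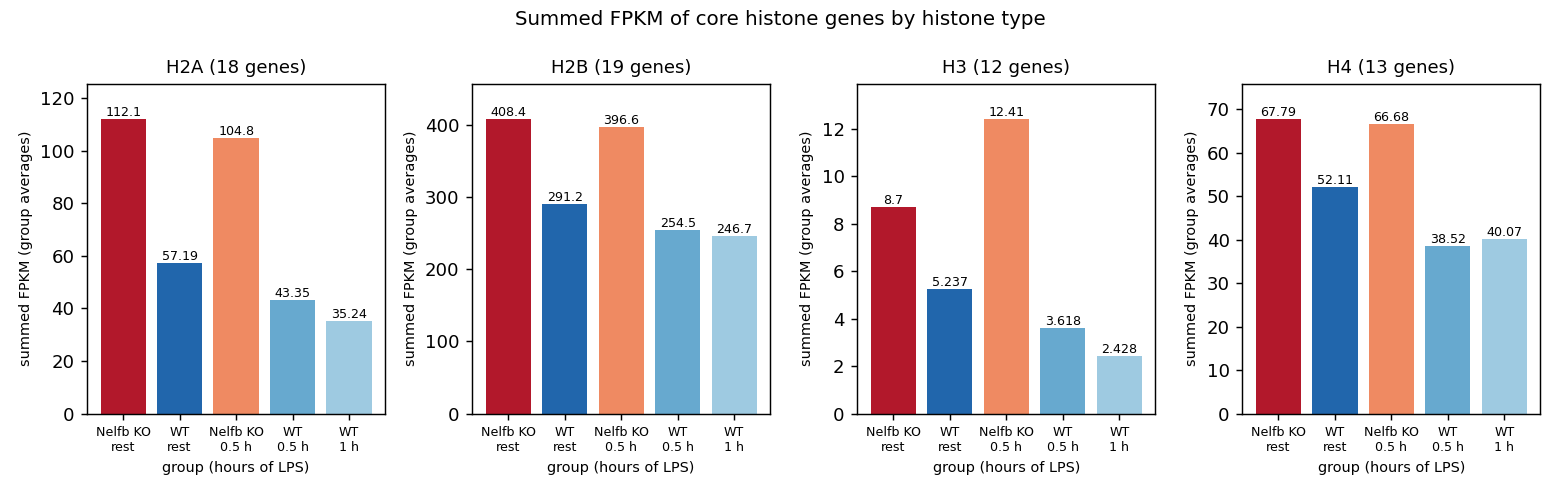
Summed FPKM of the core histone genes of each type (vertical axes, each from 0) in the 5 groups (horizontal axes, hours of LPS), where each bar is a sum of group averages and has no error bar. In all 4 panels both Nelfb KO bars stand above the 3 WT bars, as for H2A with 112.1 and 104.8 FPKM in Nelfb KO cells against 35.2 to 57.2 FPKM in WT cells.

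Single genes were compared on the log2 ratio of FPKM + 1, and a gene was taken as past the ratio at 1.4 or more (higher) or 0.6 or less (lower), the limits of fold used in the study. Only genes averaging 0.5 FPKM or more across the 5 groups were kept, which was the case for 35 of the 62 core histone genes and for 11258 genes of the table. At rest, 11 of these 35 were past the ratio as higher in Nelfb KO than in WT cells, where 1.63% of all genes kept were, and 0 were lower, where 3.61% of all genes kept were. Over all 62 genes these counts were 12 and 0, where 0.783% and 1.7% of all 23996 genes were. Short genes were past the ratio more often than all genes kept. Of the 255 other genes kept with transcripts of up to 600 nt, 27 (10.6%) were higher at rest and 62 lower. The median log2 ratio of the 35 was 0.39, and that of all genes kept was −0.02. With the length trend removed, 26 of the 35 genes were past the ratio as higher at rest (2.68% of all genes were), with a median of 0.70. With WT at 0.5 h in place of resting WT, 24 of the 35 were (1.18% of all genes kept were). The genes nearest to the limit were Hist1h2ak and Hist1h3i just inside it, both at a log2 ratio of 0.49, and Hist1h2bg and Hist1h2bl just outside it, both at 0.47.

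At 0.5 h of LPS, 22 of the 35 genes were past the ratio as higher in Nelfb KO than in WT cells, where 2.03% of all genes kept were, and 1 gene, Hist1h4n, was lower, where 1.36% of all genes kept were. Of the 255 other genes kept with transcripts of up to 600 nt, 52 (20.4%) were higher at 0.5 h and 32 lower. The median log2 ratio was 0.63 for the 35 core histone genes and 0.01 for all genes kept. By type, 5 of 9 H2A, 6 of 14 H2B, 6 of 6 H3 and 5 of 6 H4 genes were past the ratio as higher at 0.5 h, against 6, 1, 3 and 1 at rest. Over all genes of each type, these were 6 of 18, 6 of 19, 6 of 12 and 5 of 13 at 0.5 h, where 0.971% of all 23996 genes were. Of the H3 genes kept, Hist2h3c1 and Hist1h3d were under 0.5 FPKM in every WT group. They were kept through their Nelfb KO values. Hist1h3g, with 0.518, 0.370 and 0.394 FPKM in WT cells at rest, 0.5 h and 1 h, passed in the same way. So did Hist2h3c2, with 0.437, 0.720 and 0.142 FPKM. The count of 6 of 6 was thus in large part set by the filter. With the length trend removed, 22 of the 35 were higher at 0.5 h (1.79% of all genes were) and 26 at rest (2.68% were). The smaller count at rest thus does not hold under that setting. Past the ratio as higher at both times were 9 of the 35 genes, where 0.577% of all genes kept were. Both Nelfb KO values lay above all 3 WT values for 29 of the 35 genes, where 19.1% of all genes kept did, and both lay below for 0, where 21.7% did. The 6 genes whose values overlapped were Hist1h2ae, Hist1h2ap, Hist1h2bf, Hist1h2bh, Hist2h3c2 and Hist1h4n. The rule of a minimum mean lets low genes through where they are high, so these counts describe the genes kept and not the whole family. Hist1h2br, among the 29, was under 0.5 FPKM in every WT group too.

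**Figure D2:**
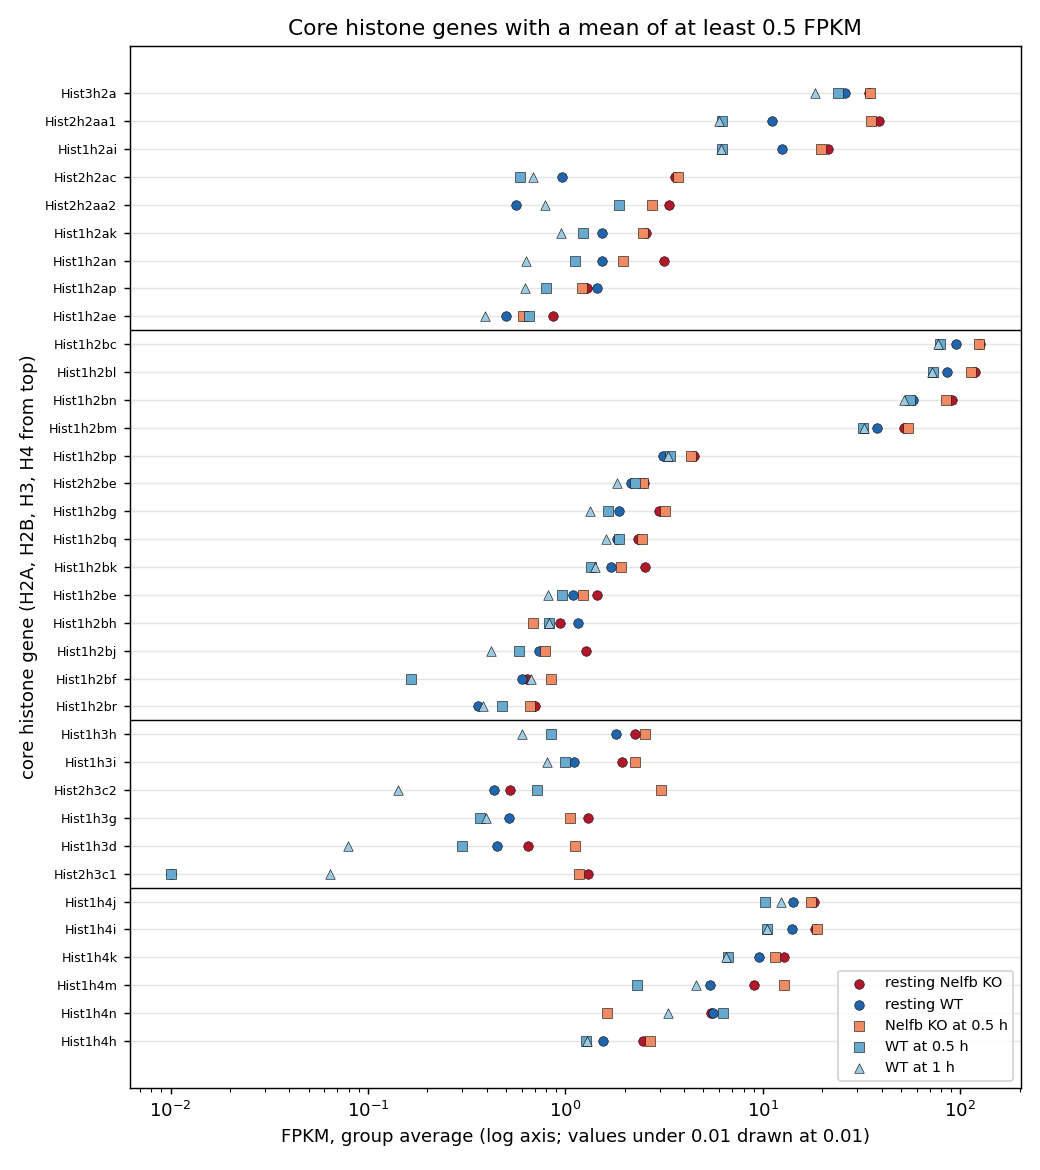
FPKM (horizontal log axis) of the 35 core histone genes kept (rows, grouped from top as H2A, H2B, H3 and H4), with 1 marker per group average and no error bars. Red and orange Nelfb KO markers lie right of the blue WT markers in 29 rows, and 4 H2B genes reach the highest levels.

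Among H2A genes, Hist2h2aa1 (mm10 chr3:96245497-96246082, plus strand, 1 exon) stood out. It had 38.7 FPKM in resting Nelfb KO and 11.1 FPKM in resting WT cells, then 35.4 FPKM in Nelfb KO and 6.18 FPKM in WT cells after 0.5 h, and 6.02 FPKM in WT cells after 1 h. Its log2 ratio of Nelfb KO to WT was 1.71 at rest and 2.34 at 0.5 h, the largest of the 35 genes at both times. Hist2h2ac, which codes for another H2A of the chromosome 3 cluster, had 3.59 FPKM in resting Nelfb KO and 0.958 FPKM in resting WT cells, and 3.72 FPKM in Nelfb KO and 0.591 FPKM in WT cells after 0.5 h (log2 ratios 1.23 and 1.57). Both genes were about as high in Nelfb KO cells with LPS as without it.

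The other H2A genes on chromosome 13 had smaller ratios at rest. Hist1h2ai had 21.4 FPKM in resting Nelfb KO and 12.6 FPKM in resting WT cells, and 19.6 FPKM in Nelfb KO and 6.19 FPKM in WT cells after 0.5 h (log2 ratios 0.72 and 1.52). Hist1h2an had 3.17 FPKM in resting Nelfb KO and 1.53 FPKM in resting WT cells, and Hist1h2ak 2.56 and 1.54 FPKM in resting Nelfb KO and resting WT cells. Hist3h2a, on chromosome 11 and the H2A gene with the highest mean, had a smaller ratio, with 34.5 FPKM in resting Nelfb KO and 26.1 FPKM in resting WT cells, and 34.8 FPKM in Nelfb KO and 24.1 FPKM in WT cells after 0.5 h (log2 ratios 0.39 and 0.51). Without Hist3h2a, the log2 ratio of the H2A sum was 1.29 at rest and 1.81 at 0.5 h, against 0.96 and 1.25 with it. In the other direction, Hist2h2aa1 and its copy Hist2h2aa2 made up much of the H2A difference. At rest they held 42.0 of 112.1 FPKM in Nelfb KO cells and 11.7 of 57.2 FPKM in WT cells. At 0.5 h they held 38.1 of 104.8 FPKM in Nelfb KO cells and 8.06 of 43.4 FPKM in WT cells. The H2A sum without this pair was not computed. Hist1h2ae had log2 ratios of 0.31 and −0.04, and Hist1h2ap −0.09 and 0.30, at rest and at 0.5 h.

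H2B genes held most of the signal, and 4 of them, Hist1h2bc, Hist1h2bl, Hist1h2bn and Hist1h2bm, had the 4 highest levels of the family. Hist1h2bc was at 125.8 FPKM in resting Nelfb KO and 94.7 FPKM in resting WT cells, at 125.0 FPKM in Nelfb KO and 78.8 FPKM in WT cells after 0.5 h, and at 76.9 FPKM in WT cells after 1 h. Hist1h2bl was at 118.5 and 85.5 FPKM in resting Nelfb KO and resting WT cells, and at 113.4 FPKM in Nelfb KO and 73.1 FPKM in WT cells after 0.5 h. These genes differed by similar factors, with log2 ratios at rest of 0.41 for Hist1h2bc, 0.47 for Hist1h2bl and 0.44 for Hist1h2bm. Only Hist1h2bn among the 14 H2B genes kept was past the ratio at rest, with 90.7 FPKM in resting Nelfb KO and 57.4 FPKM in resting WT cells (log2 ratio 0.65), and 9 of the 14 were with the length trend removed. At 0.5 h, Hist1h2bc (0.66), Hist1h2bl (0.63), Hist1h2bm (0.74) and Hist1h2bn (0.58) were all past it, as were the lower Hist1h2bg (0.66) and Hist1h2bf (0.66). Hist1h2bh was lower in Nelfb KO than in WT cells at both times, with 0.942 and 1.16 FPKM in resting Nelfb KO and resting WT cells (log2 ratios −0.15 and −0.11). Hist2h2be had 2.50 FPKM in resting Nelfb KO and 2.14 FPKM in resting WT cells (log2 ratios 0.16 and 0.09).

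H3 genes were low throughout, with 3.04 FPKM as the highest value of the 6 genes kept. Hist1h3h had 2.26 FPKM in resting Nelfb KO and 1.802 FPKM in resting WT cells, and 2.53 FPKM in Nelfb KO and 0.847 FPKM in WT cells after 0.5 h (log2 ratios 0.22 and 0.93). Hist1h3i had 1.94 FPKM in resting Nelfb KO and 1.10 FPKM in resting WT cells, and 2.26 FPKM in Nelfb KO and 0.992 FPKM in WT cells after 0.5 h (log2 ratios 0.49 and 0.71). Hist1h3g was past the ratio at both times, with 1.30 and 0.518 FPKM in resting Nelfb KO and resting WT cells. It was kept through its Nelfb KO values. At these levels the added 1 FPKM shrinks the ratio, and how many fragments stand behind such values is unknown.

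H4 genes were of intermediate level, led by Hist1h4j and Hist1h4i. Hist1h4i had 18.3 FPKM in resting Nelfb KO and 14.1 FPKM in resting WT cells, and 18.9 FPKM in Nelfb KO and 10.5 FPKM in WT cells after 0.5 h (log2 ratios 0.36 and 0.80). Hist1h4j had 18.1 and 14.2 FPKM in resting Nelfb KO and resting WT cells, and 17.4 FPKM in Nelfb KO and 10.2 FPKM in WT cells after 0.5 h (log2 ratios 0.32 and 0.72). Hist1h4k and Hist1h4h showed the same pattern, with log2 ratios of 0.39 and 0.44 at rest and 0.71 and 0.70 at 0.5 h. None of these 4 was past the ratio at rest and all 4 were at 0.5 h as deposited, but with the length trend removed all 4 were past it at both times, with log2 ratios at rest of 0.66 for Hist1h4i, 0.63 for Hist1h4j, 0.70 for Hist1h4k and 0.74 for Hist1h4h.

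**Figure D3:**
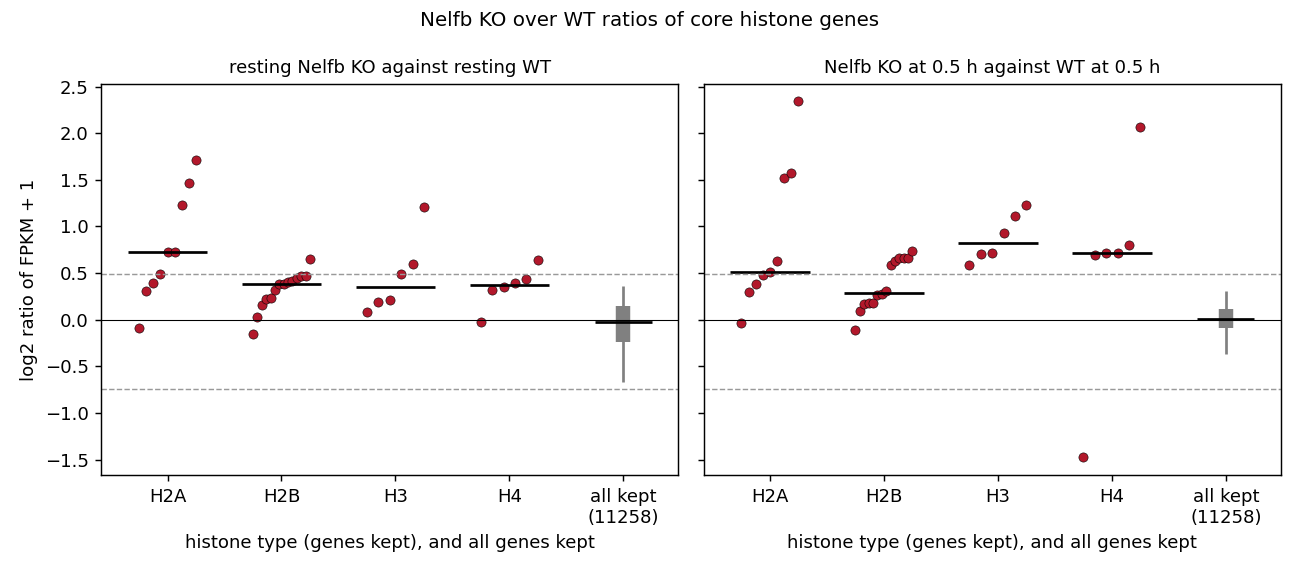
Log2 ratio of FPKM + 1 (vertical axis) of the core histone genes kept, by type, for Nelfb KO over WT at rest (left) and at 0.5 h of LPS (right), with 1 point per gene and a black line at the median. The grey bar spans the middle 50 percent and the grey line the 5th to 95th percentiles of the 11258 genes kept, and dashed lines mark ratios of 1.4 and 0.6. The H2A median is 0.72 at rest, and Hist1h4m (2.07) and Hist1h4n (−1.48), copies at 1 locus, lie apart from the other H4 genes at 0.5 h.

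Near-identical copies cannot be read singly in these data. Of the 35 genes, 14 had over 80% of their 50-base words in transcripts of other genes, among them Hist2h2aa1 (89.4%), Hist1h2ai (90.1%), Hist1h2an (85.8%), Hist1h2bl (82.8%), Hist1h2bn (86.4%), Hist1h3h (93.9%) and Hist1h3i (87.6%), so their single values above are uncertain. In the table, 4 pairs shared 1 locus, namely Hist2h2aa1 and Hist2h2aa2, Hist2h3c1 and Hist2h3c2, Hist1h2ao and Hist1h2ap, and Hist1h4m and Hist1h4n, although GENCODE places the copies of a pair between 5748 and 22561 bases apart on opposite strands. Words were counted over the longest GENCODE transcript, so sequence beyond the deposited locus can lower a share. Of the 50-base words of the Hist1h4m transcript, 89.8% occurred in Hist1h4n, and all those of Hist2h2aa2 occurred in Hist2h2aa1. At 0.5 h, Hist1h4m had 12.8 FPKM in Nelfb KO and 2.29 FPKM in WT cells, and Hist1h4n 1.63 FPKM in Nelfb KO and 6.30 FPKM in WT cells, opposite directions at the same coordinates. Summed, the pair had 14.5 FPKM in Nelfb KO and 8.59 FPKM in WT cells, a log2 ratio of 0.69, close to the other H4 genes. Hist2h2aa1 and Hist2h2aa2 together had 42.0 FPKM in resting Nelfb KO and 11.7 FPKM in resting WT cells, and 38.1 FPKM in Nelfb KO and 8.06 FPKM in WT cells after 0.5 h (log2 ratios 1.76 and 2.11). For Hist2h3c1 and Hist2h3c2 the sums were 1.83 and 0.438 FPKM in resting Nelfb KO and resting WT cells, and 4.21 FPKM in Nelfb KO and 0.722 FPKM in WT cells after 0.5 h. The WT column at 0.5 h is repeated in the table, and there Hist2h3c2 was listed at 0.268 FPKM in place of 0.720 FPKM. With each pair summed to 1 gene, 9 of 32 genes were past the ratio as higher at rest and 22 of 32 at 0.5 h, and the count of genes lower at 0.5 h was 0. Of all genes kept, as deposited, 1.63% were higher at rest, 2.03% higher at 0.5 h and 1.36% lower at 0.5 h.

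Many core histone genes stand head to head, an H2A gene reading one way and an H2B gene the other from a short shared promoter. There were 14 such pairs with gaps of 172 to 659 bases, 13 of H2A with H2B and 1 of H2B with H3, and in 6 of them both genes were kept. The gap of 172 bases is that of Hist3h2a with the pseudogene Hist3h2bb-ps. Partners did not always have like ratios, within the limit that Hist1h2ai, Hist1h2bl, Hist1h2an and Hist1h2bn share much sequence with other genes. Across the 238 bases printed above, Hist2h2ac had a log2 ratio of 1.23 at rest and 1.57 at 0.5 h, and Hist2h2be 0.16 and 0.09. Hist1h2ai and Hist1h2bl, 278 bases apart, had 0.72 and 0.47 at rest and 1.52 and 0.63 at 0.5 h. Hist1h2an and Hist1h2bp, 242 bases apart, had 0.72 and 0.41 at rest, whereas Hist1h2ak and Hist1h2bn, 295 bases apart, had 0.49 and 0.65. The partner genes also differed in level, as in 2.56 FPKM for Hist1h2ak and 90.7 FPKM for Hist1h2bn in resting Nelfb KO cells.

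Of the genes kept, the 23 with a stem-loop in an annotated transcript had a median log2 ratio of 0.39 at rest and 0.66 at 0.5 h, and the 12 without one had 0.44 and 0.63. The 12 include Hist1h2ai, Hist1h2bl, Hist1h2bn, Hist1h3h and Hist1h4k, whose gene models stop at the coding region and cannot show a stem-loop. This split therefore follows the annotation and does not compare genes with and without the element. By position, the 6 genes on chromosome 3 had a median of 1.22 at rest and 1.17 at 0.5 h, and the 28 on chromosome 13 had 0.39 and 0.63. The 5 genes with a transcript of 2 or more exons had medians of 0.32 and 0.27, and the 30 with a single exon 0.41 and 0.66. The chromosome 3 genes include the pairs Hist2h2aa1 with Hist2h2aa2 and Hist2h3c1 with Hist2h3c2, so they are fewer separate signals than their number.

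The summed core histone level differed less with LPS than with genotype, and in WT cells single genes were mostly lower after LPS as deposited. With the length trend removed, 23 of the 35 genes had a log2 ratio above 0 at 0.5 h and 21 at 1 h, though not most genes of every type. The WT sum was 405.8 FPKM at rest, 339.9 FPKM after 0.5 h and 324.5 FPKM after 1 h, with log2 ratios to rest of −0.25 and −0.32. Of the 35 genes, 1 was past the ratio as higher at 0.5 h (1.09% of all genes kept were) and 3 as lower (2.07% were), and at 1 h 0 were higher (6.26% were) and 3 lower (3.22% were). The gene past it as higher was Hist2h2aa2, and its copy Hist2h2aa1 was among the lower ones. With the length trend removed, the log2 ratios of the sum were 0.125 at 0.5 h and 0.0712 at 1 h. Then 0 of the 35 genes were past the ratio as lower at either time, where 0.671% and 1.52% of all genes were. Hist1h2ai had the lowest ratio of the 35 genes at 1 h, with 12.6 FPKM at rest, 6.19 FPKM after 0.5 h and 6.13 FPKM after 1 h in WT cells (log2 ratios −0.92 and −0.93). H2A genes together had 57.2 FPKM at rest, 43.4 FPKM after 0.5 h and 35.2 FPKM after 1 h in WT cells. With the length trend removed, 5 of 9 H2A genes kept were above 0 at 0.5 h (median 0.05) and 3 at 1 h (median −0.23). For H4, 2 of 6 were at 0.5 h (median −0.07) and 3 at 1 h (median 0.05). Most H2B and H3 genes kept were above 0 at both times.

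In Nelfb KO cells the family was nearly level over 0.5 h of LPS. The sum was 580.5 FPKM after 0.5 h and 597.0 FPKM at rest, a log2 ratio of −0.04. The median over the 35 genes was −0.05, and 1 gene was past the ratio as higher (1.32% of all genes kept were) and 1 as lower (0.222% were). These were Hist2h3c2, with 3.04 FPKM after 0.5 h and 0.525 FPKM at rest, and Hist1h4n, with 1.63 FPKM after 0.5 h and 5.46 FPKM at rest, both of them copies that share a locus with another gene. The comparisons share groups with one another, and whether the response to LPS differed between genotypes was not tested, since no values per library were used.

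**Figure D4:**
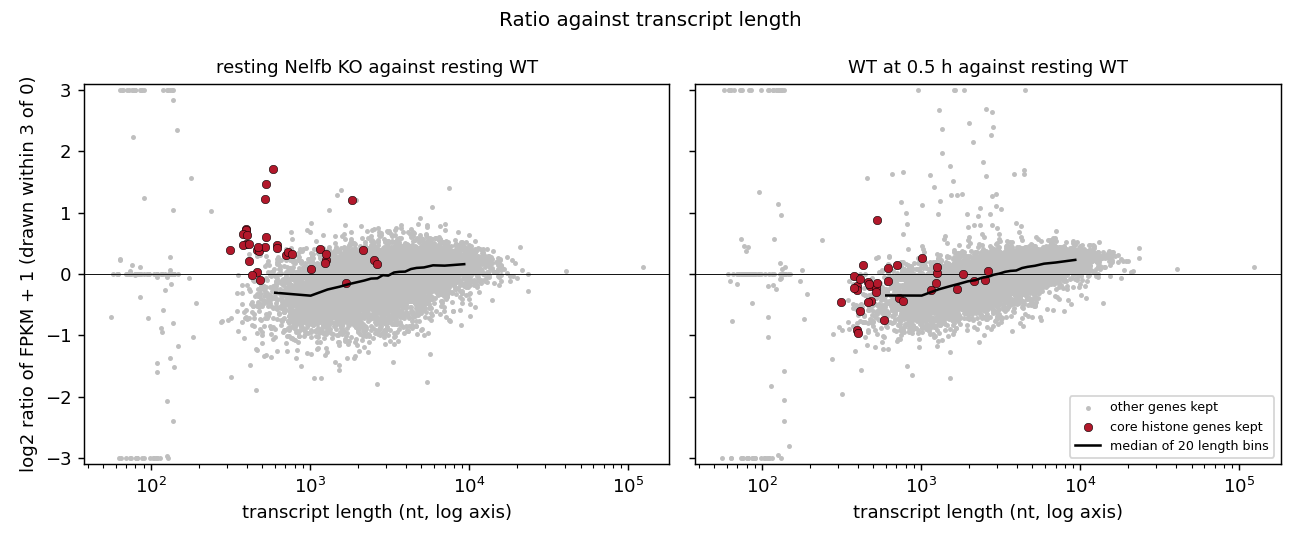
Log2 ratio of FPKM + 1 (vertical axis, values beyond 3 drawn at the edge) against transcript length in nt (horizontal log axis) for resting Nelfb KO over resting WT (left) and WT at 0.5 h over resting WT (right). Grey points are other genes kept, red points core histone genes kept, and the black line joins the medians of 20 length bins. At rest the core histone genes lie above the line, where their median is 0.39 and the line at their lengths has a median of −0.31, and on the right they lie about it, with a median of −0.17 against −0.35.

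The linker histones, which bind the DNA between nucleosomes and were no members here, were higher in Nelfb KO than in WT cells too, by larger ratios than most core histone genes. Hist1h1c had 129.9 FPKM in resting Nelfb KO and 49.7 FPKM in resting WT cells, and 117.0 FPKM in Nelfb KO and 48.6 FPKM in WT cells after 0.5 h (log2 ratios 1.37 and 1.25). Hist1h1d and Hist1h1e were also past the ratio at both times, with log2 ratios of 1.39 and 1.20 at rest, so that 3 of 3 linker genes kept were higher. The replication-independent variants, whose mRNAs carry poly(A) tails, were mixed. Of 11, H3f3b was past the ratio as higher at rest (511.0 FPKM in resting Nelfb KO and 305.9 FPKM in resting WT cells) and Cenpa, the centromeric H3, as lower (11.3 and 19.6 FPKM in resting Nelfb KO and resting WT cells), and their median log2 ratio was −0.12. At 0.5 h, H3f3b and H2afj were past it as higher and 0 variants as lower, with a median of 0.08. H2afz, the H2A.Z gene, had 261.2 and 283.7 FPKM in resting Nelfb KO and resting WT cells.

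Genes that act on histone mRNAs were close to level. Slbp had 17.0 FPKM in resting Nelfb KO and 18.8 FPKM in resting WT cells, and 18.6 FPKM in Nelfb KO and 19.3 FPKM in WT cells after 0.5 h. Of 14 genes of stem-loop binding and 3′ end processing kept, 0 were past the ratio in either direction at rest or at 0.5 h, with median log2 ratios of −0.03 and −0.07. They included Ncbp1 of the cap-binding complex, with 14.6 and 14.2 FPKM in resting Nelfb KO and resting WT cells, and Lsm11 of the U7 particle, with 0.765 FPKM in resting Nelfb KO and 0.976 FPKM in resting WT cells. Among 6 genes of histone locus transcription, Npat, the coactivator of histone genes at entry into S phase, had 2.56 and 2.37 FPKM in resting Nelfb KO and resting WT cells, and Ccne1, the cyclin that drives its kinase partner Cdk2, was past the ratio as lower with 4.54 FPKM in resting Nelfb KO and 9.61 FPKM in resting WT cells.

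Genes of DNA replication and mitosis, which in cycling cells go with core histone mRNA, were on the other side. Of 25 DNA replication genes, 12 were past the ratio as lower in resting Nelfb KO than in resting WT cells and 0 as higher, with a median log2 ratio of −0.73, and at 0.5 h 10 were lower and 0 higher, with a median of −0.71. Tk1, thymidine kinase, had 10.9 FPKM in resting Nelfb KO and 31.3 FPKM in resting WT cells, and Mcm7 of the replicative helicase 10.4 and 24.0 FPKM in resting Nelfb KO and resting WT cells. Of 15 mitosis genes, 12 were lower at rest and 11 at 0.5 h, with medians of −0.83 and −0.81, among them Birc5 with 10.5 and 30.2 FPKM in resting Nelfb KO and resting WT cells. The histone chaperones had a median of −0.18 at rest with 3 of 17 lower, namely Chaf1a, Chaf1b and Asf1b, which deliver H3 and H4 behind the replication fork. The part that these lists or transcript length have in the core histone values was not tested.

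**Figure D5:**
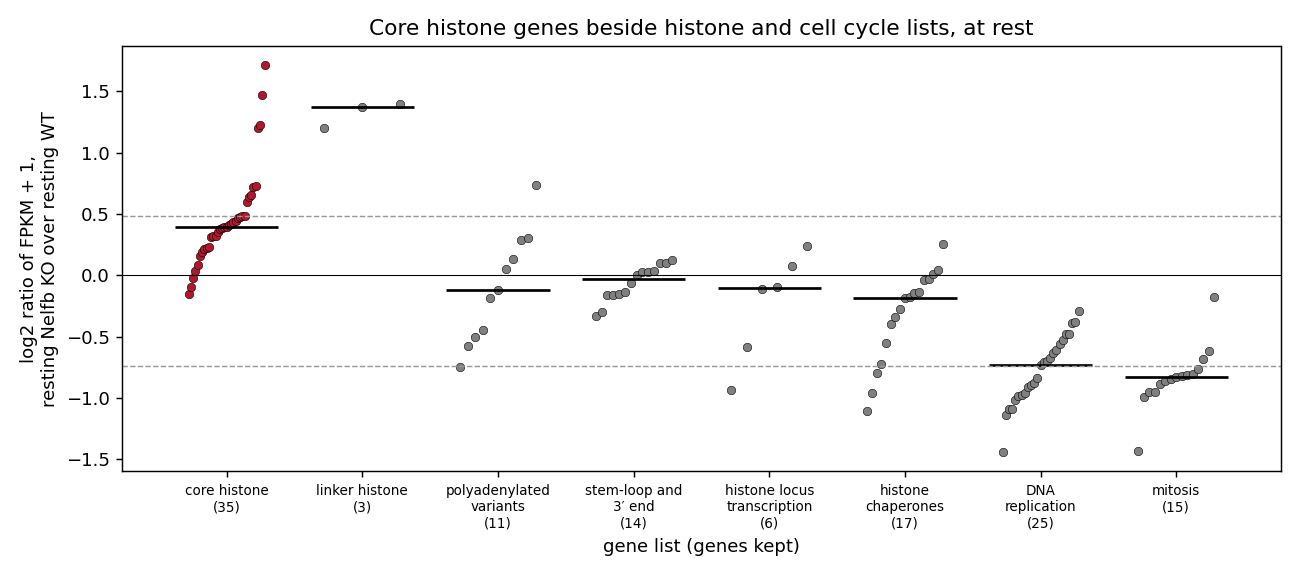
Log2 ratio of FPKM + 1 of resting Nelfb KO over resting WT (vertical axis) for core histone genes (red) and for genes of 7 lists (grey), with 1 point per gene kept, a black line at each median, the number of genes in brackets and dashed lines at ratios of 1.4 and 0.6. Core and linker histone medians are 0.39 and 1.37, and those of DNA replication and mitosis are −0.73 and −0.83.

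The remaining 27 core histone genes did not reach a mean of 0.5 FPKM, and none exceeded 0.867 FPKM in any group. They included 9 H2A, 5 H2B, 6 H3 and 7 H4 genes. The nearest below the limit were Hist1h4c, at a mean of 0.422 FPKM, and Hist3h2ba, at 0.354 FPKM, and the nearest above it were Hist2h3c1 at 0.508 FPKM and Hist1h2br at 0.516 FPKM. Hist1h2ao alone among the 27 was past the ratio as higher at both times, with 0.867 FPKM in resting Nelfb KO and 0.0662 FPKM in resting WT cells, and it shares a locus with Hist1h2ap. Their pair sum was 2.16 FPKM in resting Nelfb KO and 1.51 FPKM in resting WT cells (log2 ratio 0.33), which is not past the ratio.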

How the data were processed

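The RNA-seq libraries of BMDMs were poly(A)-selected (TruSeq), sequenced and, per the submitters' processing notes and the study's methods, processed by the authors with CASAVA 1.8, mapped to mm10 with TopHat2 2.1.0 keeping uniquely mapped reads, and quantified with Cufflinks 2.2.1. The FPKM values were deposited by the authors as 1 average per gene and group of 3 libraries. Unique mapping and the split of fragments between copies can lower or shift the values of near-identical histone genes, and depth per library was not used here. Some group columns are repeated in the table, and the first was taken. Another 12 columns hold the authors' comparisons (a ratio, p and q for 4 comparisons) and were not used.

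Members and gene lists were chosen with earlier results of these data known. Sample groups follow the labels (genotype and hours of LPS). Log2 ratios were computed on FPKM + 1 with Python 3.11.15, numpy 2.4.6 and pandas 2.3.3. Genes averaging 0.5 FPKM or more across the 5 groups were kept (11258 of 23996), and ratios from 1.4 upward or from 0.6 downward counted as past the ratio. No test was run, because no values per library were used. The counting step was checked on copies of the resting WT values with set ratios. These held no noise and no split of reads between copies, so only the code was checked.

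Any core histone gene kept could be named, and per type up to 4 with the highest mean FPKM and those past the ratio at rest came first. Of other lists, Nelfb, Slbp and up to 4 genes with the largest log2 ratio at rest were named, and Npat, Ncbp1, Lsm11, H2afz and H2afj were chosen after their values were seen. Positions and transcript lengths came from GENCODE on GRCm38 and promoters from RefSeq (GRCm38.p6). Alternatives were scaling to equal medians, quantile normalization, a pseudocount of 0.1 FPKM, no filter or one at 1 FPKM, removal of the length trend in 20 bins, ratio limits of 1.5 and its inverse, and a sum without its highest gene.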

Additional observations from a re-analysis of the deposited data

How the results depend on the processing

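Over 7 alternatives each, the log2 ratio of the core histone sum in Nelfb KO against WT cells stayed between 0.56 and 0.88 at rest and between 0.52 and 0.80 at 0.5 h, on the same side of the fold limit. For WT cells with LPS against rest, removing the length trend gave log2 ratios of the sum of 0.125 at 0.5 h and 0.0712 at 1 h, opposite in sign to −0.25 and −0.32, and of 0.19 for the H3 sum at 1 h, against −0.86.

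Counts of genes past the ratio depended more on the setting. At rest, 11 genes were higher in Nelfb KO than in WT cells, against 18 with a pseudocount of 0.1 FPKM (3.46% of all genes kept were), 26 with the length trend removed (2.68%) and 24 with WT at 0.5 h as the reference (1.18%), an alternative chosen after seeing the data. The share as deposited was 1.63%. At 0.5 h, 22 were higher, against 13 with resting WT as the reference (2.83% of all genes kept, against 2.03%). As deposited, 1 was lower (1.36%), against 0 with copies at 1 locus summed, also chosen after seeing the data. For WT at 0.5 h against rest, 1 gene was higher and 3 lower (1.09% and 2.07% of all genes kept). The counts were 2 and 6 with the pseudocount of 0.1 FPKM (1.87% and 2.92%). They were 4 and 0 with the length trend removed (1.39% and 0.671%), and 0 and 1 with copies summed. For WT at 1 h against rest, 0 were higher and 3 lower (6.26% and 3.22% of all genes kept). The counts were 1 and 7 with the pseudocount of 0.1 FPKM (8.63% and 5.56%). They were 1 and 0 with the length trend removed (5.82% and 1.52%). With limits of 1.5 and its inverse, 6 were lower (6.67%). For Nelfb KO at 0.5 h against rest, 1 was higher and 1 lower (1.32% and 0.222% of all genes kept). With the pseudocount of 0.1 FPKM, 3 were higher (1.6%), and with the filter at 1 FPKM 0 were (1.39%). With copies summed, 0 were lower. Fewer genes were tested under the stricter filter, and a smaller pseudocount shrinks low genes less. For the other values the cause was not tested. Of 111 alternative values of sums, 99 kept their direction and their side of the limit and moved by no more than 1.5 times. Of 92 alternative counts, 73 were within 1.5 times of the count as deposited. These include the counts of genes lower at rest, which were 0 in every setting.

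Group averages leave no spread between libraries, leaving out a library could not be done, and low genes have an unknown counting error. No paired analysis was possible because the table holds averages of groups.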
